A study of Mus musculus with 6 samples.

Results

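Lysosomal hydrolases and lysosomal membrane proteins were examined as a group of 40 genes in isolated lung endothelial cells (iLECs) with and without endothelial *Atp6ap2*. The members were a list of gene symbols, without subunits of the proton pump, and all 40 were found among the 24972 symbols of the deposited table. They comprise 9 membrane proteins, 11 proteases, 13 glycan-degrading enzymes and 7 lipid-degrading enzymes and luminal cofactors. Control samples (n = 3) carried a floxed *Atp6ap2* allele, labelled fl/Y, and no Cre. *Atp6ap2* iECKO samples (n = 3), called iECKO here, carried the same allele and *Cdh5-CreERT2*, a tamoxifen-activated Cre recombinase under the promoter of the endothelial gene *Cdh5*, so that other cells of the lung keep the allele intact. All pups received 100 μg tamoxifen on postnatal days 1 to 3, controls included, and lungs were taken on day 7. The labels give the strain as C57BL/6, while the methods describe a mixed CD1 and C57BL/6 background, and no Cre-positive sample without the floxed allele was sequenced. iLECs were cells held back from digested lung by magnetic beads coated with CD31 antibody. Values are normalized counts, which are estimated read numbers per gene that the authors had already scaled between libraries.

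Lysosomes are acidic organelles in which hydrolases break down proteins, glycans and lipids delivered by endocytosis and autophagy. The acid is made by the vacuolar proton pump (V-ATPase), with which ATP6AP2 is associated, and most of the hydrolases are most active at low pH. Heavily glycosylated membrane proteins line the organelle, and channels and transporters move ions, cholesterol and digestion products across its membrane. Many of these genes are targets of the transcription factor TFEB and its relatives, which bind a short palindrome called the CLEAR element, an extended form of the E-box. Inherited loss of single members causes lysosomal storage diseases. The comparison addressed here is whether transcripts of these genes differ when endothelial *Atp6ap2* is deleted.

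Promoters of the members were searched for the E-box CACGTG, because it is the core of the CLEAR element. The list is made of lysosomal genes, many of which are known targets of factors that bind this element. The share among members is therefore a description and no independent result. CACGTG, its extension TCACGTGA and the full CLEAR element, in which the extension is flanked by G and C, each equal their own reverse complement, so both strands are covered at once, and each longer motif contains the shorter ones. Windows ran from 250 bases before to 50 bases after a transcription start (RefSeq, GRCm38.p6), and 35 of the 40 members had at least 1 window. A gene was counted if any of its windows held the motif, and sets were not matched for windows per gene. The members without a window were *Npc1*, *Ctsb*, *Ctsh*, *Galns* and *Asah1*. CACGTG was present for 14 of the 35 members (40%), for 11.2% of the tested genes with a window and for 8.09% of all genes in the promoter table. TCACGTGA was present for 6 members (17.1%) against 2.05% of the tested genes, and the full CLEAR element for 1 member, *Cln3* (2.86% against 0.728%). Of lysosomal genes outside the list 10 of 59 with a window held CACGTG (16.9%), and of V-ATPase subunits 4 of 14 (28.6%). By role, 4 of 8 membrane proteins, 5 of 9 proteases and 5 of 12 glycan-degrading enzymes held CACGTG, and 0 of 6 lipid-degrading enzymes and cofactors did. *Lamp1* held the most copies. Its window, chr8:13158911-13159210 on the plus strand, is printed whole to show 4 copies within 61 bases upstream of the start, with CACGTG in capitals:
Lamp1 promoter: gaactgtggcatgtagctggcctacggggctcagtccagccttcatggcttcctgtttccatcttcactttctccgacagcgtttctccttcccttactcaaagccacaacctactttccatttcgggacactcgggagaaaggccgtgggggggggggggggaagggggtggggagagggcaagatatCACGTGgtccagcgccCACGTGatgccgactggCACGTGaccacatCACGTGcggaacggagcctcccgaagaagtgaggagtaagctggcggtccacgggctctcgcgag
Single sites are printed for 8 further members, to show how the bases beside the core differ between genes of the list.
Cln3: gggtactgtCACGTGacccccaac
Mcoln1: cgccccgctCACGTGaccgcggcg
Clcn7: atgatagatCACGTGagacctggg
Ctsd: cccgcgtctCACGTGacccgttga
Ctsa: gcaaactgtCACGTGatgcagatg
Gla: gatctcggtCACGTGagcaactct
Naglu: ccttcaggtCACGTGgcccgaggt
Ctsf: cccgtggtcCACGTGcctcgcgta
Positions are counted from the transcription start of the window that holds the site. These sites begin 121 bases upstream for *Cln3*, 45 for *Mcoln1*, 98 for *Ctsd* and 12 for *Ctsa*. They begin 194 bases upstream for *Gla*, 73 for *Naglu* and 79 for *Ctsf*, and 7 bases downstream for *Clcn7*. The first 6 sites match TCACGTGA. *Cln3*, *Ctsa* and *Clcn7* each had a further window, at another start, without CACGTG. For *Cln3* and *Ctsa* that further window lay at the annotated start of the gene. A match shows only that the letters are present, and binding was not measured.

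The libraries were checked before the members were read. *Atp6ap2*, the deleted gene, had normalized counts of 7490, 5815 and 5681 in controls 1 to 3 and of 4220, 2336 and 1982 in iECKO libraries 1 to 3. Its genotypes did not overlap, and its log2 fold change was -1.22 (SE 0.26, adjusted *P* = 0.0306, limma). Total normalized counts were between 26243878 and 28725799 per library. The labels give fl/Y for all 6 samples, but *Xist*, transcribed from the inactive X chromosome, was between 37704 and 47487 in 4 libraries. It was at 31.7 and 19.3 in control 3 and iECKO 2. *Ddx3y*, a gene of the Y chromosome, was at 4554 and 4656 in control 3 and iECKO 2. It was at 173 in control 1, 11.3 in iECKO 3 and 0 in control 2 and iECKO 1. By these genes control 3 and iECKO 2 were male and the other 4 libraries female, with some *Ddx3y* in control 1. The paper analysed both sexes, as fl/Y males and fl/fl females, so the fl/Y label does not match these 4 libraries. Results that rest on *Xist* are also given for the 4 *Xist*-positive libraries. The 14 endothelial markers were all detected, with summed counts of 340273 to 432878 in controls and 357021 to 406585 in iECKO libraries, and a median log2 fold change of 0.04. Of these, *Tek*, a receptor of angiopoietins, fell (-0.53, adjusted *P* = 0.0292, limma) and 13 did not pass. Markers of other cells were present too. Of 14 fibroblast markers 12 were tested and 8 of them fell, with sums of 48257 to 81828 in controls and 20060 to 25675 in iECKO libraries, and of 12 mural and smooth muscle markers 8 fell, with sums of 13801 to 20795 and 5706 to 7275. *Lum*, *Scara5* and *Fap* were at 0 in at least 1 library. Of 24 leukocyte and 12 epithelial markers 0 and 1 passed the test (also 0 and 1 at an unadjusted *P* below 0.05, limma). Lysosomal genes are expressed in all of these cells, and the part of the marker shifts in the results below was not tested. In such bulk samples fewer cells of a type and less RNA per cell cannot be told apart.

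Most lysosomal transcripts were close to their control level. All 40 members passed the filter of at least 10 normalized counts in at least 3 libraries, and the lowest value of any member in any library was 133.8. Of the 40 members, 3 differed between genotypes at an adjusted *P* value below 0.05 (limma, adjusted over 14456 genes), which is 7.5% against a background of 8.25% of all genes tested. *Manba* rose (1 member, 2.5%, against 3.28% of all genes called higher), and *Npc1* and *Lipa* fell (2 members, 5%, against 4.97% called lower). Without adjustment 10 members had a *P* value below 0.05, 3 of them higher and 7 lower, against 23.9% of all genes tested. The genotypes did not overlap for 12 members (30%), against 29.8% of all genes tested. Of these, 5 were higher and 7 lower, beside 14.7% and 15% of all genes. None of these shares stands out from its background. With scaling by library totals instead of the authors' normalization, the called members were *Manba* and *Grn*, both higher, and 0 were lower, while 10 members again had an unadjusted *P* value below 0.05 (limma).

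The sizes of the differences were small. Log2 fold changes ran from -0.50 for *Ctsf* to 0.38 for *Gusb*, with a median of -0.06 against 0.00 for all genes tested. Of the 40 members, 25 (62.5%) were below 0, against 49.3% of all genes. Across the alternative settings this count ran from 19 to 27. The mean of 20 members was within 10% of control and that of 32 within 20%. For 26 members (65%) the 95% interval of the log2 fold change, not adjusted for multiple testing, lay between -0.5 and 0.5, as it did for 39.0% of all genes. The interval was wide for *Ctss* and *Idua*, which are described further below. The plot of fold changes by role shows all 40 estimates.

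**Figure D1:**
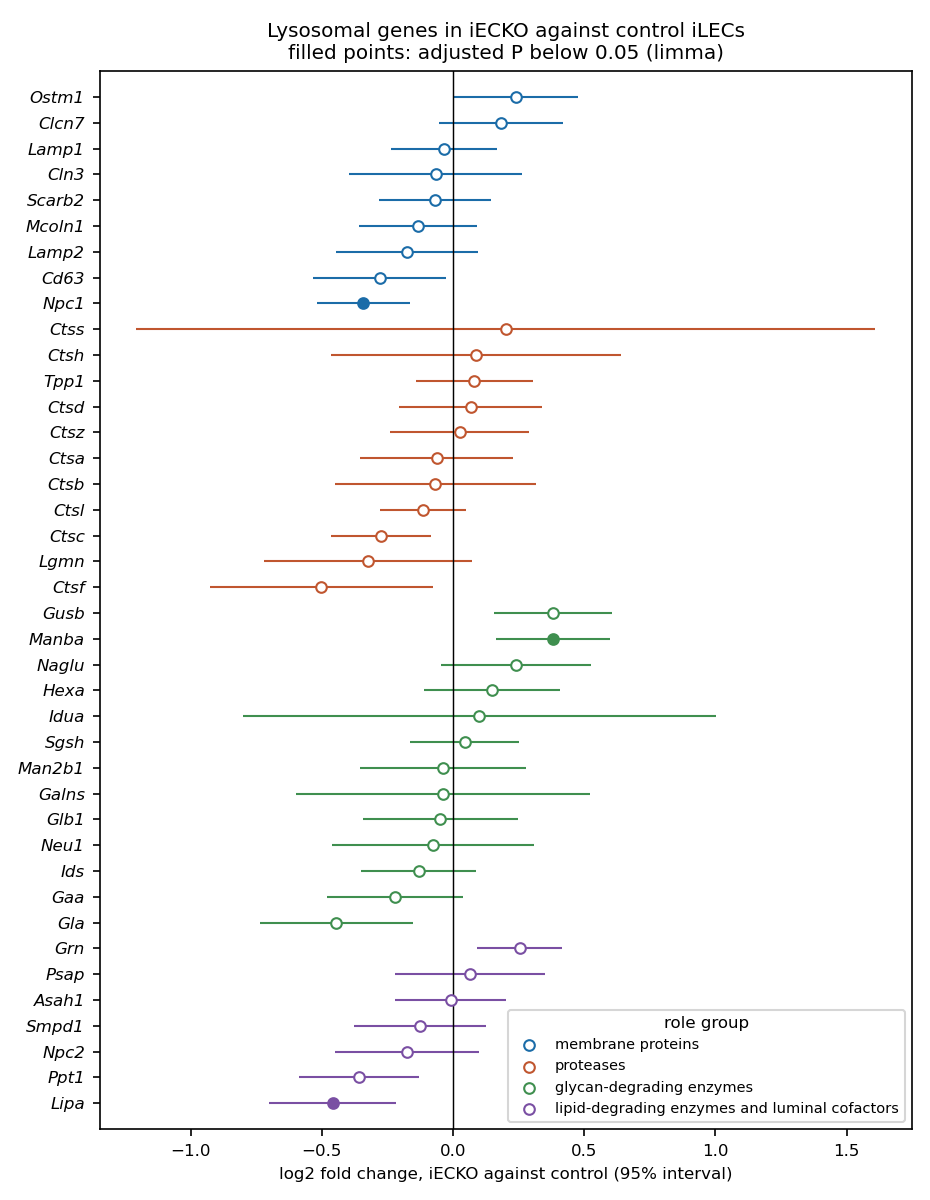
Log2 fold change of each of the 40 members in iECKO against control iLECs (x axis) with its 95% interval from limma, grouped and coloured by role. Filled points mark *Npc1*, *Manba* and *Lipa*, whose adjusted *P* value is below 0.05, and estimates run from -0.50 to 0.38.

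**Figure D2:**
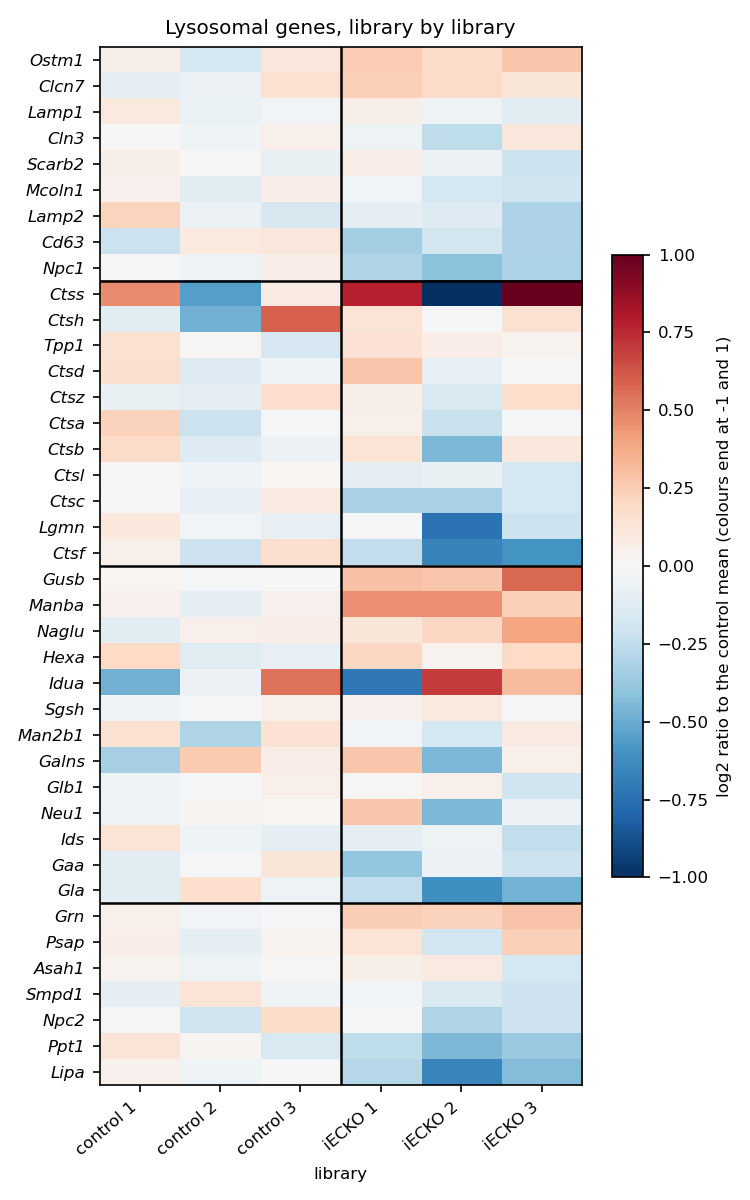
Log2 ratio of each member to its control mean in every library, with members in rows ordered as in the plot of fold changes and grouped by role between the horizontal lines. Most cells are pale, while *Ctss* and *Idua* change colour within a genotype, and the row of *Npc1* is blue in all 3 iECKO libraries.

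Among the 9 membrane proteins, *Npc1* fell and 8 did not pass the test (11.1% called, against 8.25% of all genes tested). NPC1 exports cholesterol from the lysosome together with the luminal carrier NPC2. *Npc1*, on chromosome 18, had normalized counts of 2372, 2310 and 2512 in controls and 1944, 1808 and 1924 in iECKO libraries. Every iECKO library lay below every control library. Its log2 fold change was -0.34 (SE 0.08, adjusted *P* = 0.0361, limma), and it was between -0.37 and -0.31 with each library left out in turn. The adjusted *P* value was above 0.05 in each of these 6 fits (0.0592 to 0.1501), and it was 0.0796 with library total scaling and 0.306 in the 4 *Xist*-positive libraries. Exons of *Npc1* share 4.52% of their length with *Rmc1* on the other strand, and the counting is not stated to use strand.

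The major glycoproteins of the lysosomal membrane overlapped between genotypes. *Lamp1*, whose promoter holds the 4 E-boxes, had 12925, 11573 and 11854 in controls and 12612, 11714 and 11160 in iECKO libraries. The values of both genotypes interleave, and the log2 fold change was -0.03 with a 95% interval of -0.24 to 0.17. *Lamp2* is described with the X-linked members. *Scarb2*, the receptor that carries glucocerebrosidase to lysosomes, had a log2 fold change of -0.07 (interval -0.28 to 0.14). *Cd63*, a tetraspanin that endothelial cells also keep in Weibel-Palade bodies, had 1392, 1729 and 1741 in controls and 1272, 1417 and 1299 in iECKO libraries. Only control 1 lay within the iECKO range of *Cd63*, whose log2 fold change was -0.28 (adjusted *P* = 0.168, limma).

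The ion channels and transporters of the membrane did not pass the test either. *Ostm1* encodes the partner subunit of the chloride-proton exchanger encoded by *Clcn7*. *Ostm1* had 925.8, 790.0 and 966.1 in controls and 1063, 1012 and 1080 in iECKO libraries. Each iECKO library exceeded each control, and the log2 fold change was 0.24 (SE 0.10, adjusted *P* = 0.21, limma). *Clcn7* had a log2 fold change of 0.18 (interval -0.05 to 0.42), with overlapping libraries. *Mcoln1*, the calcium channel mucolipin-1, was at -0.14 (interval -0.36 to 0.09). *Cln3*, which carries the full CLEAR element and encodes a membrane protein lost in a childhood neurodegenerative disease, was at -0.07 (interval -0.40 to 0.26).

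Of the 11 proteases, 0 passed the test and 2 had an unadjusted *P* value below 0.05 (limma). Of all genes tested 8.25% and 23.9% did. *Ctsc* encodes cathepsin C, a dipeptidyl peptidase that activates granule serine proteases of immune cells. *Ctsc* had 4343, 4107 and 4634 in controls and 3487, 3473 and 3854 in iECKO libraries. Each iECKO library of *Ctsc* was below each control library, with a log2 fold change of -0.27 (SE 0.08, adjusted *P* = 0.0857, limma). *Ctsf*, cathepsin F, was the member with the lowest level per kb of exon. Its values were 265.0, 222.0 and 285.6 in controls and 216.3, 160.8 and 169.2 in iECKO libraries, which did not overlap. Its log2 fold change of -0.50 (SE 0.18, adjusted *P* = 0.143, limma) was the lowest of all members, and its interval of -0.93 to -0.08 was among the wider ones. *Ctsl*, cathepsin L, did not overlap between genotypes, at 5113, 4965 and 5158 against 4738, 4832 and 4505, and its log2 fold change was only -0.11 (SE 0.07, adjusted *P* = 0.379, limma). Exons of *Ctsl* share 26.8% of their length with the antisense gene *Gm47123*.

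Several further proteases had fold changes near 0. *Ctsd*, the aspartic protease cathepsin D, had 7829, 6438 and 6872 in controls and 8521, 6620 and 7060 in iECKO libraries. Its log2 fold change was 0.07 (interval -0.21 to 0.34), and 34.4% of its exon length is shared with the annotated gene *Gm49369* on the same strand, so the reads of the pair may have been divided. *Ctsb*, the cysteine protease cathepsin B, was at -0.07 (interval -0.45 to 0.32). *Tpp1*, tripeptidyl peptidase, was at 0.08 (interval -0.14 to 0.30), *Ctsz*, cathepsin Z, at 0.03 (interval -0.24 to 0.29), and *Ctsa*, which protects neuraminidase and β-galactosidase, at -0.06 (interval -0.36 to 0.23). *Lgmn*, the asparaginyl endopeptidase that processes cathepsins, had 3167, 2883 and 2779 in controls and 2903, 1760 and 2534 in iECKO libraries. iECKO 2 was far below the other libraries of *Lgmn*, and the log2 fold change was -0.32 (interval -0.72 to 0.07), or -0.12 without iECKO 2. *Ctsh* and *Ctss* are described with the libraries below.

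Of the 13 glycan-degrading enzymes, *Manba* rose and 12 did not pass the test (7.69% called, against 8.25% of all genes tested). MANBA, β-mannosidase, removes the last mannose at the core of N-linked glycans. *Manba*, on chromosome 3 from 135485611 to 135571404 (GRCm38, plus strand), had 1273, 1161 and 1268 in controls and 1692, 1688 and 1451 in iECKO libraries. All iECKO libraries of *Manba* were above all controls. The log2 fold change was 0.38 (SE 0.09, adjusted *P* = 0.0482, limma), and the mean was 30.5% above that of controls. The fold change stayed between 0.34 and 0.45 with each library left out, but none of these 6 fits passed (adjusted *P* = 0.0725 to 0.175, limma), nor did the fit on the *Xist*-positive libraries (0.290).

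*Gusb* and *Naglu* were also higher in every iECKO library, and both take part in the breakdown of glycosaminoglycans. *Gusb*, β-glucuronidase, had 1609, 1574 and 1583 in controls and 1947, 1929 and 2364 in iECKO libraries. The controls of *Gusb* were nearly equal and all iECKO libraries were above them, with a log2 fold change of 0.38 (SE 0.10, adjusted *P* = 0.0525, limma). *Naglu*, which removes N-acetylglucosamine from heparan sulfate, had 397.5, 446.4 and 449.9 in controls and 468.2, 497.2 and 566.4 in iECKO libraries. Its genotypes did not overlap, but the nearest pair was close, and the log2 fold change was 0.24 (SE 0.12, adjusted *P* = 0.288, limma). Other enzymes of glycosaminoglycan breakdown had fold changes near 0. *Sgsh*, the heparan sulfamidase, was at 0.04 (interval -0.16 to 0.25), with 21.6% of its exons shared with *Card14* on the other strand. *Galns*, a sulfatase for keratan and chondroitin sulfate, was at -0.04 (interval -0.60 to 0.52).

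*Hexa*, the α subunit of β-hexosaminidase, had the highest level per kb of exon in this role group, but not the highest count. Its values were 1250, 1000 and 1031 in controls and 1259, 1116 and 1251 in iECKO libraries, which overlapped, with a log2 fold change of 0.15 (interval -0.11 to 0.41). *Glb1*, lysosomal β-galactosidase, had 346.9, 355.3 and 371.0 in controls and 360.0, 369.6 and 310.9 in iECKO libraries. Its log2 fold change was -0.05 (interval -0.34 to 0.25). *Man2b1*, the lysosomal α-mannosidase that acts on the same glycans as MANBA, was at -0.04 (interval -0.35 to 0.28). *Neu1*, the sialidase, was at -0.08 (interval -0.46 to 0.31), and *Gaa*, which degrades glycogen, at -0.22 (interval -0.48 to 0.04).

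*Lamp2*, *Gla* and *Ids* lie on the X chromosome, as *Atp6ap2* does, and the libraries with and without *Xist* are mixed in both genotypes. *Gla*, the α-galactosidase lost in Fabry disease, which damages vessels, had 1059, 1292 and 1107 in controls and 968.8, 749.0 and 827.4 in iECKO libraries. All iECKO libraries of *Gla* were below all controls, with a log2 fold change of -0.44 (SE 0.13, adjusted *P* = 0.0719, limma). It was -0.39 in the *Xist*-positive libraries alone (adjusted *P* = 0.323), and it passed the test without iECKO 1 (-0.54, adjusted *P* = 0.0489, limma). *Lamp2*, needed for the fusion of autophagosomes with lysosomes, had 10879, 8944 and 8331 in controls and 8774, 8546 and 7512 in iECKO libraries. These overlapped, and the log2 fold change was -0.18 (adjusted *P* = 0.42, limma), and -0.28 in the *Xist*-positive libraries. Without control 1, the highest library of *Lamp2*, it was -0.064, and without iECKO 3, the lowest, -0.11. *Ids*, iduronate sulfatase, had 2176, 1928 and 1857 in controls and 1862, 1908 and 1669 in iECKO libraries, also overlapping, and its log2 fold change was -0.13 (adjusted *P* = 0.456, limma), and -0.22 in the *Xist*-positive libraries. The 2 *Xist*-negative libraries, control 3 and iECKO 2, had 1107 and 749.0 for *Gla*, 8331 and 8546 for *Lamp2*, and 1857 and 1908 for *Ids*, so that only *Gla* was lower in the iECKO library of that pair.

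Of the 7 lipid-degrading enzymes and luminal cofactors, *Lipa* fell and 6 did not pass the test (14.3% called, against 8.25% of all genes tested). LIPA, lysosomal acid lipase, frees cholesterol and fatty acids from lipoproteins taken up by endocytosis, the step before the export of cholesterol by NPC2 and NPC1. *Lipa*, on chromosome 19 from 34492318 to 34527474 (GRCm38, minus strand), had 2429, 2291 and 2350 in controls and 1935, 1493 and 1744 in iECKO libraries. The genotypes of *Lipa* were apart, and iECKO 1 was the nearest to controls. The log2 fold change was -0.46 (SE 0.10, adjusted *P* = 0.0383, limma). With a library left out it was between -0.55 and -0.36, and it passed the test without iECKO 1 (adjusted *P* = 0.0267, limma) but not without any of the other 5 libraries (0.0764 to 0.120). With library total scaling its adjusted *P* value was 0.0521 (limma), and it was 0.252 in the *Xist*-positive libraries.

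*Npc2*, the partner of NPC1, overlapped between genotypes. It had 4897, 4219 and 5522 in controls and 4792, 3931 and 4201 in iECKO libraries, with a log2 fold change of -0.18 (interval -0.45 to 0.10). For *Npc2* it was -0.082 without control 3, -0.11 without iECKO 2 and -0.28 without control 2, and -0.019 in the *Xist*-positive libraries. *Ppt1*, which removes palmitate from proteins, had 2503, 2338 and 2060 in controls and 1920, 1680 and 1774 in iECKO libraries. Its genotypes did not overlap, and its log2 fold change was -0.36 (SE 0.10, adjusted *P* = 0.0657, limma). *Grn*, progranulin, a secreted and lysosomal glycoprotein, had 5298, 5026 and 5049 in controls and 6080, 6020 and 6233 in iECKO libraries. Its replicates were close together and its genotypes apart, with a log2 fold change of 0.25 (SE 0.07, adjusted *P* = 0.0652, limma), and with library total scaling it passed. The enzymes of ceramide and sphingomyelin breakdown also overlapped between genotypes. *Asah1*, acid ceramidase, was at -0.01 (interval -0.22 to 0.20), and *Smpd1*, acid sphingomyelinase, at -0.13 (interval -0.38 to 0.13).

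**Figure D3:**
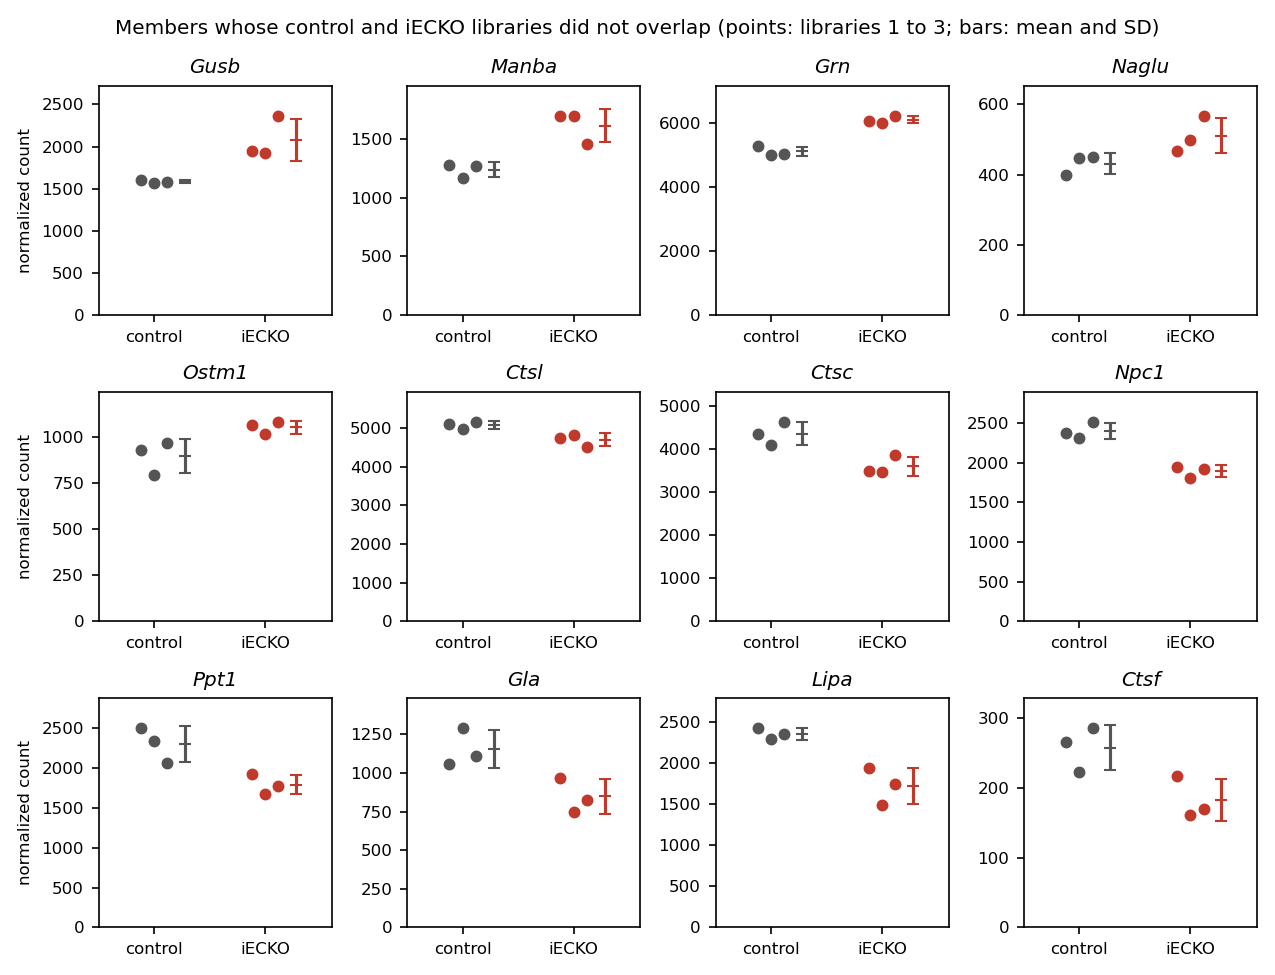
Normalized counts of the 12 members whose genotypes did not overlap, with a point for each library (grey control, red iECKO) and bars for mean and SD (n = 3 each), on axes that start at 0. *Gusb*, *Manba*, *Grn*, *Naglu* and *Ostm1* are higher in iECKO libraries and the other 7 lower, by at most 30.9% and 29.3% of the control mean.

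Members with and without the E-box had similar ranges of fold change. Among the 14 members with CACGTG the median log2 fold change was -0.06 (from -0.50 to 0.24), 4 were above 0 and 10 below, 0 passed the test (limma) and 4 did not overlap between genotypes. Among the 21 members with a window and without CACGTG it was -0.04 (from -0.46 to 0.38), 10 were above 0 and 11 below, 2 passed (*Manba* and *Lipa*) and 7 did not overlap. Over all genes tested 8.25% passed and 29.8% did not overlap. These are descriptions, and the difference between these groups of members was not tested.

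Levels spanned a 101-fold range per kb of exon in controls. Per length, *Psap*, the precursor of the saposins that present lipids to hydrolases, was highest at 5153 ± 311 normalized counts per kb (SD, n = 3), followed by *Lamp1* at 4530 ± 267 and *Ctsd* at 2997 ± 303. The control ranges of *Psap* and *Lamp1* overlapped, while *Lamp1* and *Ctsd*, and *Ctsd* and *Grn* (1475 ± 43.4), were apart. *Hexa* led the glycan-degrading enzymes at 547.9 ± 68.4. *Ctsf* (51.1 ± 6.44), *Idua* (54.8 ± 19.8) and *Cln3* (55.4 ± 1.87) were lowest and overlapped each other. Of 39 neighbouring pairs in this order, 32 had overlapping control ranges. iECKO levels kept close to this order, with *Psap* at 5422 ± 811 per kb and *Ctsf* at 36.1 ± 5.94. The length of a gene was that of all its annotated exons, merged across isoforms, which can exceed that of the transcript expressed. The order and the range depend on it. *Man2b1* and *Gusb* had higher control means than *Hexa* (2445 and 1589 against 1094) but longer merged exons (8026 and 4548 bases against 1996). These GENCODE exons may also differ from the annotation the authors used.

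**Figure D4:**
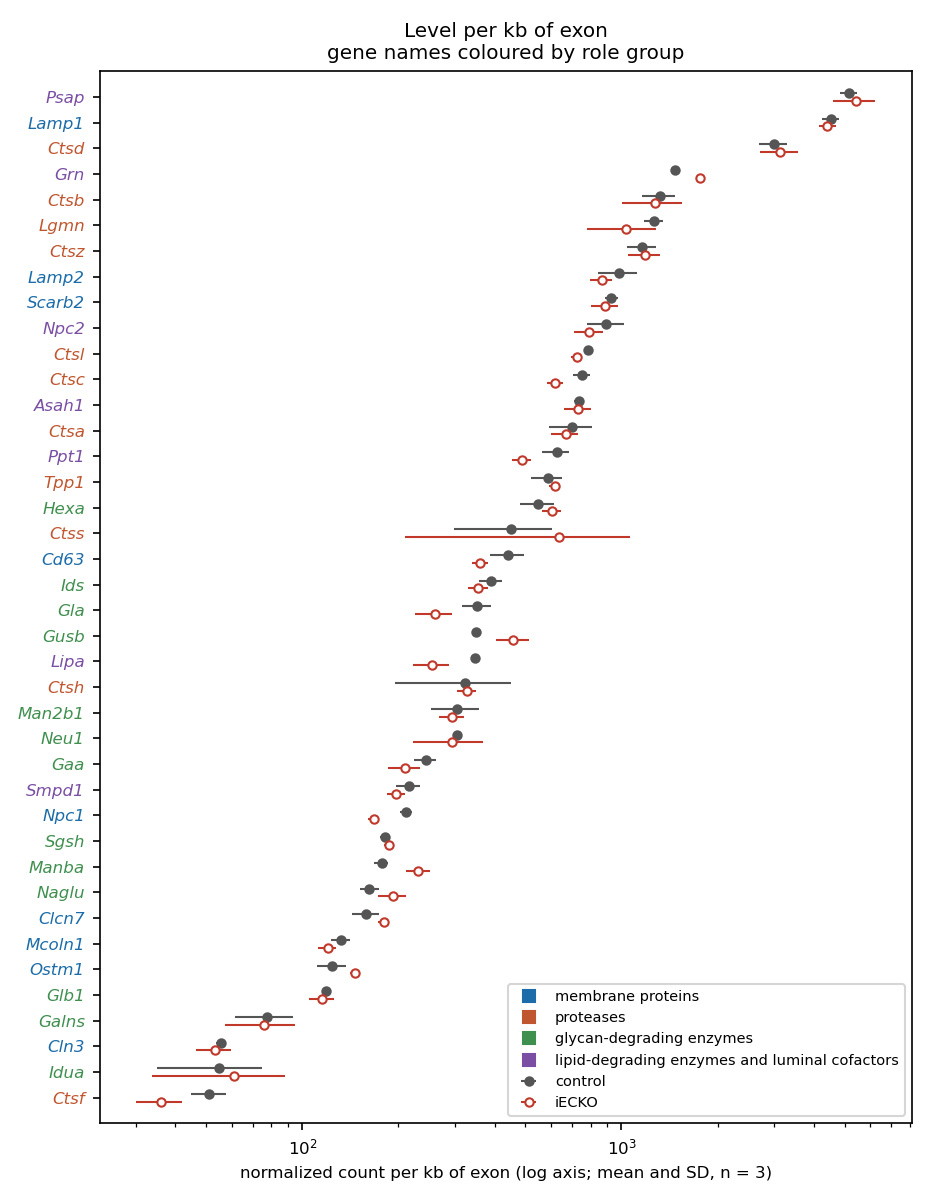
Mean normalized count per kb of exon for each member on a log axis, in control (filled grey) and iECKO iLECs (open red), with SD (n = 3 each) and names coloured by role. *Psap* and *Lamp1* are at the top and *Ctsf* at the bottom, and the means of both genotypes lie close together on this scale.

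Some members differed between libraries of the same genotype by more than any member differed between genotypes. *Ctss*, cathepsin S, which is abundant in macrophages and other antigen-presenting cells, had 815.4, 400.8 and 623.7 in controls and 1011, 225.9 and 1355 in iECKO libraries. The highest iECKO library was 6.00 times the lowest, and the log2 fold change of 0.20 between genotypes had an interval of -1.21 to 1.61. The summed count of the 24 leukocyte markers was 17219, 9707 and 14795 in controls and 18510, 7208 and 22167 in iECKO libraries. From lowest to highest the 6 libraries had the same order for *Ctss* as for this sum, and none of the leukocyte markers was at 0 in any library. *Psap* also followed that order, at 14787, 13172 and 14463 in controls and 15558, 12392 and 16686 in iECKO libraries, with a log2 fold change of 0.06 (interval -0.22 to 0.35). Among all genes tested 0.567% had this order, and 2 of the 40 members (5.00%). The leukocyte sum spanned 3.08-fold, while the highest iECKO library of *Psap* was 1.35 times the lowest. The same match was run for the epithelial, fibroblast, mural and endothelial sums. It held for 0 members each, against 0.159%, 1.23%, 1.2% and 0.304% of all genes tested.

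*Ctsh*, cathepsin H, which alveolar type II cells use to process surfactant protein, had 1278, 990.1 and 2096 in controls and 1521, 1363 and 1539 in iECKO libraries. Control 3 was well above the rest of *Ctsh*. The sum of the 12 epithelial markers was 27539, 25110 and 69578 in controls and 37331, 31355 and 31277 in iECKO libraries, with control 3 highest there too. *Idua*, the iduronidase of heparan and dermatan sulfate breakdown, had 157.8, 212.2 and 321.5 in controls and 133.8, 359.7 and 275.8 in iECKO libraries. *Idua* was highest in the 2 libraries without *Xist*, and its log2 fold change was 0.10 (interval -0.80 to 1.00). Exons of *Idua* share 2.95% of their length with *Dgkq* and 3.35% with *Slc26a1* on the other strand.

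**Figure D5:**
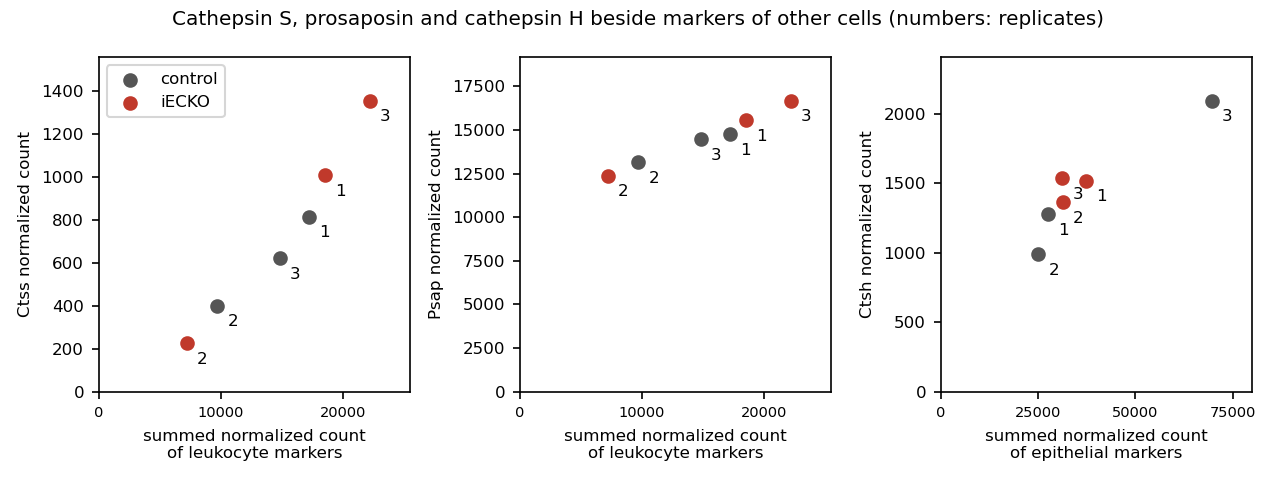
Normalized counts of *Ctss* and *Psap* against the summed counts of leukocyte markers, and of *Ctsh* against those of epithelial markers, with a point for each library (grey control, red iECKO) numbered by replicate. *Ctss* and *Psap* order the libraries as the leukocyte sum does, from iECKO 2 to iECKO 3, and control 3 stands apart for *Ctsh* and the epithelial sum.

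Across the list, iECKO 2 was the library with the most low values. It held the lowest of the 6 values for 16 members (40%) against 14.1% of all genes tested, and iECKO 3 for 9 (22.5% against 19.2%). The median log2 ratio of the members to their control mean was 0.05 in iECKO 1, -0.14 in iECKO 2 and -0.04 in iECKO 3, and between -0.05 and 0.04 in controls. iECKO 2 also had the lowest sum of leukocyte markers, *Xist* at only 19.3 and the greatest estimated depth (1.55 relative to control 2). Control 3, the other *Xist*-negative library, held the lowest value for 1 member (2.5% against 19.5% of all genes tested). It held the highest value for 10 members (25% against 19.7%). Whether any of these traits goes with the low values was not tested. Without iECKO 2 the median log2 fold change of the members was -0.01, against -0.06 with all libraries.

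The list of other lysosomal genes held 76 genes that are not members, of which 75 were tested under their listed symbols. Of these, 2 fell and 0 rose (2.67% against the background of 8.25%), and 14 of the 75 had an unadjusted *P* value below 0.05 (limma), against 23.9% of all genes tested. Their median log2 fold change was -0.04. The genes that fell were proteases. *Ctso*, cathepsin O, had 1410, 1164 and 1301 in controls and 1004, 948.8 and 986.6 in iECKO libraries (log2 fold change -0.39, SE 0.10, adjusted *P* = 0.0469, limma). *Cpq*, a carboxypeptidase, had 607.5, 743.6 and 787.7 in controls and 470.0, 515.6 and 492.5 in iECKO libraries (-0.52, SE 0.13, adjusted *P* = 0.0445, limma). Neither gene's libraries overlapped between genotypes. Neither passed with library total scaling, nor without control 3 or any of the iECKO libraries, while without control 1 only *Cpq* and without control 2 only *Ctso* of this pair passed. By role, 0 of 23 membrane proteins and 0 of 18 sorting and transcription genes passed, with 6 and 4 at an unadjusted *P* value below 0.05 (limma). Of 19 V-ATPase subunits 1 fell (5.26%, against 4.97% of all genes called lower) and 0 rose, and their median log2 fold change was 0.04. It was *Atp6v0a1*, a subunit of the membrane sector, at -0.32 (SE 0.08, adjusted *P* = 0.043, limma).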

How the data were processed

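RNA-Seq of 3 control and 3 *Atp6ap2* iECKO iLEC samples was analysed, with replicates described in the study as biological. The authors aligned reads to mm10 and quantified genes with BaseSpace tools (RNA-Seq Alignment 2.0.1 and Differential Expression 1.0.1), with an annotation not given in the sources used here. The deposited values are a normalized signal, one value per gene and library. The labels call them raw counts, but they are not whole, and only 48.8% to 74.1% of the values below 12 were within 0.02 of a whole multiple of the commonest value. Reads were not recovered, so no count model was run and no counting interval is given. The commonest low value, which falls with depth, put the libraries within 1.55-fold of each other. Relative depth by this estimate was 1.02, 1 and 1.04 in controls 1 to 3 and 1.25, 1.55 and 1.26 in iECKO libraries 1 to 3. Every iECKO library was thus deeper than every control.

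Log2 of the normalized count plus 1 was fitted with limma 3.58.1 (R 4.3.3) with a mean-variance trend, for 14456 genes with at least 10 in at least 3 libraries. Benjamini-Hochberg adjustment ran over all of these genes, and the threshold was an adjusted *P* value of 0.05. A 95% interval is that of the moderated fit. The smallest two-sided *P* value of an exact permutation test of 3 against 3 is 0.1, so no such test was used. The script was tested on simulated data. Exon lengths, positions and overlaps came from GENCODE M21 (GRCm38), in which all 40 members matched, and promoter sequences from RefSeq.

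Members and gene lists were chosen with earlier results of these data known. Values in every library are given for members that passed the test, did not overlap, had the 3 largest rises or falls, led their role group per kb or are X-linked, and beyond that rule for *Cd63*, *Lgmn*, *Ctss*, *Ctsh*, *Idua*, *Npc2* and *Glb1*, which were chosen after their values were seen. Deviations of control and iECKO libraries were correlated across genes, for same-numbered and differently numbered pairs. Alternatives were other scalings, filters, pseudocounts, variance models and thresholds, the replicate number or *Xist* as a covariate, *Xist*-positive libraries alone and each library left out. The study's other assays were not analysed here.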

Additional observations from a re-analysis of the deposited data

How the results depend on the processing

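The 3 called members depended on the setting. The count was 0 without the mean-variance trend, in the *Xist*-positive libraries and at an adjusted *P* below 0.01 (9, 8 and 10 members at an unadjusted *P* below 0.05, limma), 1 with *Xist* as a covariate, 7 with array weights, 8 at an adjusted *P* below 0.1, and from 0 to 2 with a library left out (8 to 11 at an unadjusted *P* below 0.05). The 2 other lysosomal genes called became 0 with library total scaling, without the trend, with *Xist* as a covariate, in the *Xist*-positive libraries or at an adjusted *P* below 0.01 (12, 13, 15, 7 and 14 unadjusted, limma), 1 with upper quartile scaling or no filter, and 0 to 2 with a library left out. Of all genes tested, 2.1% were called without the trend, 1 gene (0.00692%) in the *Xist*-positive libraries and 0.623% at an adjusted *P* below 0.01. The share was 5.31% with *Xist* as a covariate, 10.8% with array weights and 13.7% at an adjusted *P* below 0.1. It was 1.41% to 6.84% with a library left out, 8.11% with library total scaling, 8.4% with upper quartile scaling and 5.69% with no filter. Where so few genes passed, a count of 0 says little about the members. The cause of the changes in count was not tested. The members' median log2 fold change moved by less than the spread between replicates (SD 0.07 of the library medians) under every alternative run. That spread is larger than the median of -0.06 itself, so the comparison cannot show that its sign holds. The median was 0.01 in the *Xist*-positive libraries. Members below 0 numbered 25 in the main fit, 19 in the *Xist*-positive libraries, 20 without iECKO 2 and 21 with library total scaling. They numbered 27 without control 2 and also without iECKO 1.

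Signs of small log2 fold changes turned. With library total scaling, which put the median of all genes at 0.05, *Lamp1* was at 0.0054, *Man2b1* at 0.0019, *Galns* at 0.0016 and *Asah1* at 0.032, and with array weights *Man2b1* and *Asah1* were at 0.011 and 0.0099. In the *Xist*-positive libraries *Cln3* was at 0.053, *Ctsa* 0.013, *Ctsb* 0.095, *Man2b1* 0.10, *Neu1* 0.12 and *Galns* 0.20. With a library left out, values ran from -0.082 to 0.012 for *Lamp1*, -0.14 to 0.0030 for *Scarb2*, -0.15 to 0.028 for *Cln3*, -0.17 to 0.051 for *Ctsa*, -0.17 to 0.12 for *Ctsb*, -0.039 to 0.15 for *Ctsd*, -0.15 to 0.39 for *Ctsh*, -0.30 to 0.99 for *Ctss*, -0.049 to 0.12 for *Ctsz*, -0.0012 to 0.16 for *Tpp1*, -0.096 to 0.029 for *Glb1*, -0.20 to 0.51 for *Idua*, -0.19 to 0.039 for *Man2b1*, -0.25 to 0.11 for *Neu1*, -0.21 to 0.17 for *Galns*, -0.057 to 0.074 for *Asah1* and -0.025 to 0.19 for *Psap*. None of these members was called.

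Same-numbered libraries deviated together by r = 0.25, 0.11 and 0.08 across genes. Differently numbered control and iECKO libraries had r from -0.21 to 0.10. Of these, only control 3 with iECKO 2 was above 0. The main fit did not use the numbers, and whether they pair the samples was not tested. With the replicate number as a block, 10.4% of all genes tested were called, against 8.25% in the main fit. With the replicate block 3 members and 3 other lysosomal genes were called, and *Manba* was no longer called (adjusted *P* = 0.056, limma) while *Ppt1* was.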

Other observations

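Genes that sort enzymes to the lysosome or set its transcription did not pass the test. An unadjusted *P* value below 0.05 (limma) was found for 4 of 18, against 23.9% of all genes tested, and their values follow first. *Mitf*, a relative of TFEB, had 241.1, 218.3 and 186.3 in controls and 242.1, 413.5 and 477.0 in iECKO libraries, a log2 fold change of 0.76 (adjusted *P* = 0.119, limma), with iECKO 1 barely above the highest control. *Gnptab*, which makes the mannose 6-phosphate tag of lysosomal enzymes, was at 0.43 (adjusted *P* = 0.146), *Gga2*, an adaptor of the same route, at 0.29 (adjusted *P* = 0.124), and the sorting receptor *Sort1* at -0.38 (adjusted *P* = 0.155). *Tfeb* and *Tfe3* were at -0.09 and -0.17 (adjusted *P* = 0.69 and 0.335, limma), and the mannose 6-phosphate receptors *M6pr* and *Igf2r* at -0.02 and -0.04. Among the alternatives, *Mitf* was called only without iECKO 1, its lowest iECKO library, and *Sort1* only without control 1, its lowest control. *Gnptab* was called only with the replicate block.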
